A study of Homo sapiens with 2 samples.

Results

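The cytosolic chaperone system was followed at the transcript level in 22Rv1, a human prostate cancer line that grows without androgen, as 39 listed genes out of the 57351 gene symbols in the table. The genes were chosen by name and comprise the 8 subunits of the CCT chaperonin, 6 prefoldin subunits, the HSP90, HSP70, HSP110 and small heat shock proteins of the cytosol, J-proteins, BAG proteins, HSP90 and HSP70 co-chaperones, and the heat shock transcription factor HSF1. The cells expressed either a hairpin RNA that targets EIF3F (shEIF3F), the gene of a subunit of translation initiation factor eIF3, or the vector control (shCON), and each group was 1 library of total RNA. Whether the cells were a pool or a single clone, and how long the hairpin was expressed, is not given in the sources used here. With no replicates, no difference below has an error, a p-value or a replicate check, and with 1 hairpin, effects of EIF3F loss and other effects of that hairpin cannot be told apart.

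Newly made proteins that cannot fold alone pass through this system in steps. HSP70 and its J-protein partners bind exposed segments first, and nucleotide exchange factors release them. Prefoldin hands actin and tubulin to the CCT ring, which folds them inside its cavity, and HSP90 with its co-chaperones finishes kinases and steroid receptors, among them the androgen receptor. HSF1 induces many of these genes when misfolded protein accumulates.

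Values are TPM, a transcript abundance scaled by transcript length within each library, so levels of different genes can be compared. TPM keeps no read number, and the depth behind each value is unknown. Differences are log2((shEIF3F TPM + 1) / (shCON TPM + 1)), called log2 ratios here, for the 13310 genes whose mean reached 1 TPM, and a log2 ratio of 1 or more, or of -1 or less, is called at least 2-fold. EIF3F itself stood at 17.0 TPM in shEIF3F and 991 TPM in shCON, or 1.72% of the control level. All 8 luminal prostate markers checked reached 1 TPM in at least 1 library, summing to 933 TPM in shEIF3F and 895 TPM in shCON. They ran between 1.94 and 347 TPM in shEIF3F, and between 9.71 and 301 TPM in shCON. Of 6 fibroblast markers 3 reached 1 TPM in either library (27.2 TPM summed in shEIF3F, 40.9 TPM in shCON), as did 1 of 4 leukocyte markers (0.95 and 5.95 TPM summed) and 0 of 4 endothelial markers, of which VWF, CDH5 and KDR were listed at 0. The part of these markers in the results was not tested, and in bulk RNA fewer cells of a type and less RNA per cell cannot be told apart.

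Together the 39 genes held 0.645% of TPM in shEIF3F and 0.725% in shCON. All but BAG2, a nucleotide exchange factor at 0.5 TPM in shEIF3F and 0.47 TPM in shCON, passed this filter. Among the 38 left, 9 stood at least 2-fold lower in shEIF3F, or 23.7%, beside 25.5% of all genes tested. At least 2-fold higher was 1 gene, or 2.63%, beside 8.44% of all genes tested. The median log2 ratio of the 38 genes was -0.43, beside -0.36 for all genes tested. Both the share of lower genes and the median were close to those of all genes. The split between higher and lower rested on scaling, and the 100 most abundant genes, none of them a member, held 59.7% of TPM in shEIF3F and 45.4% in shCON. Centring all ratios on their median, which adds 0.36 to each, left 3 of the 38 at least 2-fold lower and put 4 at least 2-fold higher, beside 16% and 14.7% of all genes. Rescaling without those 100 genes gave 3 lower and 5 higher, beside 16.1% and 14.8% of all genes.

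**Figure D1:**
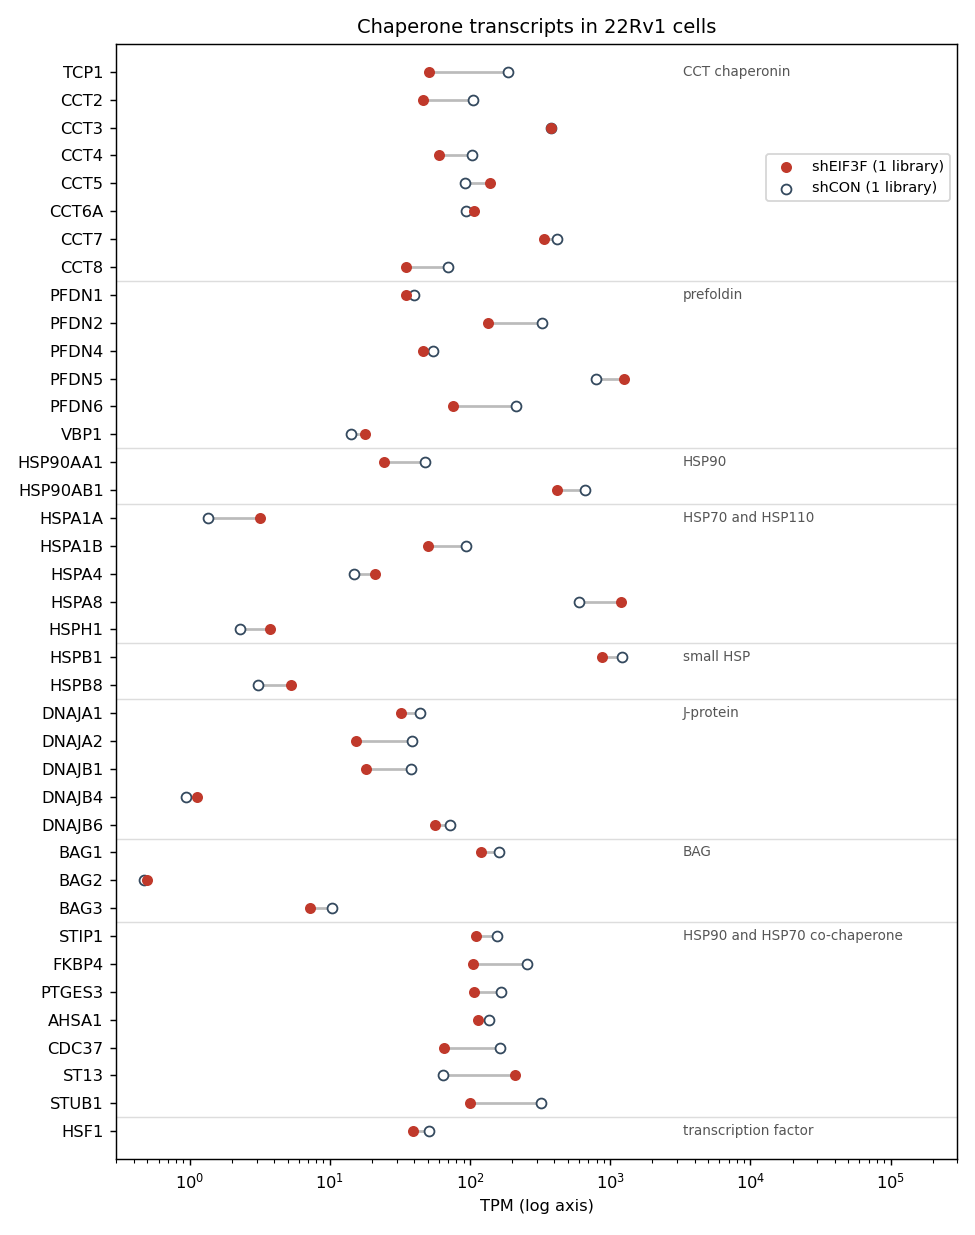
TPM of each of the 39 genes on a log axis, 1 filled point for the shEIF3F library and 1 open point for the shCON library, grouped by family. Levels span 0.5 to 1256 TPM in shEIF3F and 0.47 to 1206 TPM in shCON, and the longest connecting lines belong to TCP1, STUB1, PFDN6 and ST13.

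The subunits of the CCT chaperonin, which forms a double ring holding each subunit in equal number, differed from one another in their ratios. TCP1, the founding subunit, was the lowest at 51.1 TPM in shEIF3F and 186 TPM in shCON (log2 ratio -1.85), and CCT2 stood at 46.4 TPM in shEIF3F and 106 TPM in shCON (-1.17). These 2 of the 8 were at least 2-fold lower, a share like the 25.5% of all genes tested. TCP1 remained past the limit under every setting run, whereas CCT2 was within it after centring (-0.82), after rescaling (-0.75) and with the GC trend removed (-0.99). CCT8 lay just short of that limit, at 35.0 TPM in shEIF3F and 69.6 TPM in shCON (-0.97), and CCT4 stood at 59.7 and 102.8 TPM in the same order (-0.78).

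The other 4 subunits were nearer to the control or above it. CCT3 was at 376.5 TPM in shEIF3F and 376.8 TPM in shCON, and CCT7 at 339 TPM in shEIF3F and 415 TPM in shCON (log2 ratio -0.29, or 0.07 after centring). CCT6A was at 107.6 TPM in shEIF3F and 94.3 TPM in shCON (0.19), and CCT5 at 139 TPM in shEIF3F and 91.6 TPM in shCON (0.59). Summed over the ring, CCT transcripts amounted to 1154 TPM in shEIF3F and 1442 TPM in shCON. CCT3 and CCT7 were the most abundant subunits in both libraries, and TCP1 came next after them in shCON, but after CCT5, CCT6A and CCT4 in shEIF3F.

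The imbalance among subunits was wider in shEIF3F. The highest subunit exceeded the lowest 10.8-fold in shEIF3F and 5.96-fold in shCON. TCP1 made up 4.43% of the summed CCT TPM in shEIF3F and 12.9% in shCON, while CCT5 made up 12.02% in shEIF3F and 6.35% in shCON. These shares do not depend on any factor common to a library. TCP1 and CCT5, the subunits with the lowest and the highest log2 ratio, have a transcript GC content of 43.8% and 44.6%. CCT8, the least abundant subunit in both libraries, has 43.1%. The most abundant have 51.2% (CCT3, in shEIF3F) and 51.3% (CCT7, in shCON). The part of GC content in these shares was not tested.

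Prefoldin, a jellyfish-shaped complex of alpha-type and beta-type subunits, divided by subunit type in the values as deposited, a grouping chosen after the values were seen. Both alpha-type subunits were above the control level. PFDN5, which also binds MYC, was at 1256 TPM in shEIF3F and 795 TPM in shCON (log2 ratio 0.66), and VBP1 at 17.8 TPM in shEIF3F and 14.3 TPM in shCON (0.30). All 4 beta-type subunits were below it, as were most genes tested: CCT3, with a log2 ratio of -0.00092, ranked above 65.3% of them. PFDN6 was at 76.0 TPM in shEIF3F and 213 TPM in shCON (-1.48), and PFDN2 at 135 TPM in shEIF3F and 329 TPM in shCON (-1.28). PFDN4 (-0.23) and PFDN1 (-0.19) differed by much less than 2-fold, and both were positive after centring (0.13 for PFDN4 and 0.17 for PFDN1). With the GC trend removed PFDN6 (-0.73) and PFDN2 (-0.88) were within 2-fold, as was PFDN2 after centring (-0.92).

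PFDN5 alone made up 80.2% of summed prefoldin TPM in shEIF3F and 55.0% in shCON. The beta-type subunits summed to 292 TPM in shEIF3F and 636 TPM in shCON, whereas the alpha-type subunits summed to 1273 TPM in shEIF3F and 809 TPM in shCON. Exons of PFDN6 overlap the opposite strand of RGL2 over 32.2% of their length. RGL2, like the other overlapping genes below named after their values were seen, was at 20.4 TPM in shEIF3F and 24.6 TPM in shCON, and since the use of strand in counting is not stated, reads of the 2 genes cannot be told apart there.

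**Figure D2:**
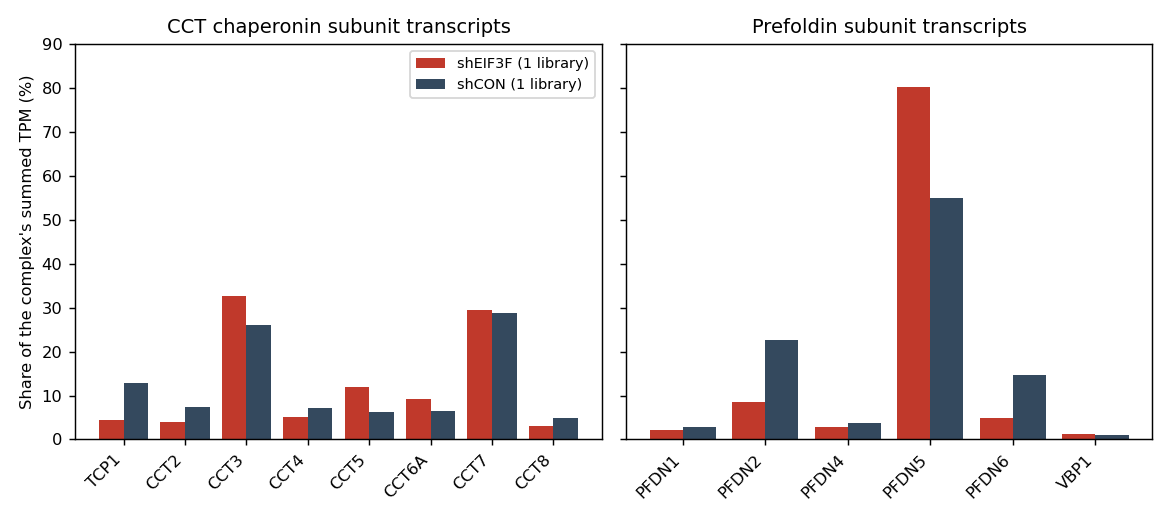
Share of each subunit in the summed TPM of its complex, in percent, for the shEIF3F library (left bar) and the shCON library (right bar). TCP1 took 4.43% of CCT TPM in shEIF3F against 12.9% in shCON, and PFDN5 took 80.2% of prefoldin TPM in shEIF3F against 55.0% in shCON.

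HSPA8 was above the control level and both HSP90 genes below it under every setting run. HSPA8, the constitutive HSP70 known as HSC70, was at 1186 TPM in shEIF3F and 599 TPM in shCON. Its log2 ratio of 0.98 lies just under the 2-fold limit, and it was past the limit after centring (1.34), after rescaling without the 100 most abundant genes (1.42) and with the GC trend removed (1.21). HSP90AB1, the constitutive HSP90 beta, was at 416 TPM in shEIF3F and 664 TPM in shCON (-0.67). HSP90AA1, the inducible HSP90 alpha, was at 24.3 TPM in shEIF3F and 47.5 TPM in shCON (-0.94). HSPA8 transcripts thus stood at 2.85 times those of HSP90AB1 in shEIF3F and at 0.903 times in shCON, a pair chosen after the values were seen. Of the 50-base segments of each transcript, 15.4% (HSPA8), 18.8% (HSP90AB1) and 17.5% (HSP90AA1) also occur in another annotated gene. How reads shared between genes were counted is not known, and their part in these values was not tested.

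The HSP110 proteins HSPA4 and HSPH1, exchange factors for HSP70, were within 2-fold. HSPA4 was at 20.9 TPM in shEIF3F and 14.9 TPM in shCON (log2 ratio 0.46), and HSPH1 at 3.73 TPM in shEIF3F and 2.29 TPM in shCON (0.52).

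Stress-inducible HSP70 is encoded by the near-identical neighbours HSPA1A and HSPA1B, and their values cannot be read one by one. HSPA1B was at 50.1 TPM in shEIF3F and 93.5 TPM in shCON (log2 ratio -0.89), and HSPA1A at 3.19 TPM in shEIF3F and 1.35 TPM in shCON (0.83). Of the 50-base segments of the HSPA1A transcript, 72.6% also occur in HSPA1B. A noncoding gene annotated on the same strand, AL671762.1, overlaps 36.5% of the exonic length of HSPA1B and was at 48.8 TPM in shEIF3F and 14.8 TPM in shCON. HSPA1A and HSPA1B together had 53.3 TPM in shEIF3F and 94.9 TPM in shCON, or 0.562 times the control. With AL671762.1 added, the 3 entries of the locus had 102.1 TPM in shEIF3F and 109.7 TPM in shCON, a log2 ratio of -0.10. Whether reads in AL671762.1 come from HSPA1B was not tested. TPM of entries of different length do not add exactly, so these sums are approximate.

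Heat shock elements, the sites HSF1 binds, were searched for in the promoter windows of the 39 genes. The windows run from 250 bases before to 50 bases after each RefSeq start site (GRCh38.p14). The motif was 3 alternating units, GAANNTTCNNGAA, or on the other strand TTCNNGAANNTTC. Matches may overlap each other. Windows were found for 33 of the 39 genes, and not for CCT6A, PFDN2, FKBP4, ST13, STUB1 and HSF1. The motif was present for 5 of the 33, namely HSPA8, HSP90AA1, HSP90AB1, DNAJA1 and DNAJB6, or 15.2%, beside 0.608% of the 27305 genes with a RefSeq promoter window. The 250 bases before the start are shown for the HSP70 and HSP90 genes among them, as they carry the contrast described above, with matches in capitals.
HSPA8, chr11:123062137-123062386, minus strand: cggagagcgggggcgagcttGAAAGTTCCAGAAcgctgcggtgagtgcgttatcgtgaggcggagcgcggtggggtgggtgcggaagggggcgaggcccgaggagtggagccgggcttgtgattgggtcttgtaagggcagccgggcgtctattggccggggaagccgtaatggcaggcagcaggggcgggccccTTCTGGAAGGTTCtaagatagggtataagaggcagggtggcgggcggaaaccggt
HSP90AA1, chr14:102087045-102087294, minus strand: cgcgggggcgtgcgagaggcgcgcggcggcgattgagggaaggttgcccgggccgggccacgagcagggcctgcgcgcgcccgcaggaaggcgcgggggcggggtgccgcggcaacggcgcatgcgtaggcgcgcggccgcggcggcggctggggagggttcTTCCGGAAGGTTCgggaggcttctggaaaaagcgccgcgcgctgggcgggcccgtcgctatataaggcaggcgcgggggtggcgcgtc
HSP90AB1, chr6:44247693-44247942, plus strand: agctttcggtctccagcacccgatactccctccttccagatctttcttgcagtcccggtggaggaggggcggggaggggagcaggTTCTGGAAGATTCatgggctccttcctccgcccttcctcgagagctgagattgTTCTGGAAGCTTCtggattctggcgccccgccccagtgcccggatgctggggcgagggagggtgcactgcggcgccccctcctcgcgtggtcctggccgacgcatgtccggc

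HSPA8 and HSP90AB1 each hold 2 matches and HSP90AA1 holds 1 in the window shown. HSPA8 had no other window, and the windows of other annotated starts of HSP90AB1 and HSP90AA1 held no match. The motif thus stands before genes whose log2 ratios were 0.98 (HSPA8), -0.67 (HSP90AB1) and -0.94 (HSP90AA1). The other 2 genes with a match, DNAJA1 (-0.44) and DNAJB6 (-0.35), were both within 2-fold. A match describes the sequence only, and the windows of DNAJB1, HSPA1A and HSPA1B held none. The search counted only exact units at this spacing, so these windows may hold sites that depart from the motif. HSF1 itself was at 39.3 TPM in shEIF3F and 50.8 TPM in shCON (-0.36, or -0.0058 after centring). Its transcript has a GC content of 63.9%, and with the GC trend removed its ratio was 0.55.

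J-proteins deliver unfolded segments to HSP70 and stimulate its ATPase. Of the 5 among the members, 2 were at least 2-fold lower, beside 25.5% of all genes tested. Both were within 2-fold after centring (-0.92 for DNAJA2 and -0.67 for DNAJB1). DNAJA2 was at 15.4 TPM in shEIF3F and 38.8 TPM in shCON (log2 ratio -1.28), while its paralogue DNAJA1 was at 32.3 TPM in shEIF3F and 44.0 TPM in shCON (-0.44). DNAJB1, the heat-inducible HSP40, was at 18.1 TPM in shEIF3F and 37.8 TPM in shCON (-1.02), only just past the limit. Genes on the opposite strand, of which TECR overlaps most, cover 6.21% of the exonic length of DNAJB1. TECR was the more abundant, at 112.6 TPM in shEIF3F and 262.3 TPM in shCON. Without stated strand use, reads of DNAJB1 and TECR cannot be told apart there.

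DNAJB6, a suppressor of protein aggregation, was the most abundant of the 5 member J-proteins in both libraries. It was at 55.9 TPM in shEIF3F and 71.5 TPM in shCON. DNAJB4 lay at the edge of the filter, at 1.13 TPM in shEIF3F and 0.94 TPM in shCON. HSPA8 transcripts outnumbered those of DNAJB1 65.6-fold in shEIF3F and 15.8-fold in shCON, a pair chosen after the values were seen.

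Small heat shock proteins hold misfolded clients without ATP. HSPB1, known as HSP27, was the most abundant of all 39 genes in shCON, at 878 TPM in shEIF3F and 1206 TPM in shCON (log2 ratio -0.46). Its transcript has a GC content of 64.5%, where all genes tested had a median near -0.91, so with the GC trend removed its ratio was 0.46. HSPB8, which works with BAG3 in clearing aggregates by autophagy, was at 5.27 TPM in shEIF3F and 3.05 TPM in shCON (0.63), and BAG3 at 7.28 TPM in shEIF3F and 10.3 TPM in shCON (-0.45). BAG1, another exchange factor for HSP70, was at 121 TPM in shEIF3F and 162 TPM in shCON (-0.42). Both BAG proteins past the filter thus had ratios close to that of the median gene.

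The co-chaperones held the only member that was at least 2-fold higher. ST13, known as HIP, which stabilises HSP70 in its client-bound state, was at 210 TPM in shEIF3F and 64.0 TPM in shCON (log2 ratio 1.70), above 97.3% of all genes tested. It kept a ratio of 1.64 or more under every alternative setting run. ST13 has many processed pseudogenes, and 30.7% of its 50-base segments occur in another annotated gene. The pseudogene entries named for ST13 summed to 0.08 TPM in shEIF3F and 0.06 TPM in shCON. How reads shared between genes were counted is not known, so these sums do not show the part of shared reads in ST13.

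Another HSP70 partner, STUB1, differed the other way. STUB1, known as CHIP, is the ubiquitin ligase that sends chaperone-bound clients to the proteasome, and it was at 100.1 TPM in shEIF3F and 321 TPM in shCON (log2 ratio -1.67). ST13 transcripts stood at 2.09 times those of STUB1 in shEIF3F and at 0.199 times in shCON, a pair chosen after the values were seen. The STUB1 transcript has the highest GC content of all members, 65.8%, and with the GC trend removed its ratio was -0.53. JMJD8 overlaps 42.4% of its exonic length on the opposite strand and was at 43.1 TPM in shEIF3F and 74.3 TPM in shCON, and without stated strand use their reads cannot be told apart.

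Co-chaperones of HSP90 were all below the control level, as deposited. CDC37, which brings kinases to HSP90, was at 65.7 TPM in shEIF3F and 164 TPM in shCON (log2 ratio -1.30). FKBP4, the immunophilin FKBP52 that promotes hormone binding by steroid receptors, was at 105 TPM in shEIF3F and 256 TPM in shCON (-1.28). Both were within 2-fold after centring (-0.94 for CDC37 and -0.92 for FKBP4). With the GC trend removed CDC37, whose transcript has a GC content of 59.95%, was at -0.58.

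The co-chaperones that shape the HSP90 cycle differed less. PTGES3, known as p23, which holds HSP90 closed, was at 107.1 TPM in shEIF3F and 167 TPM in shCON (log2 ratio -0.64). STIP1, known as HOP, which bridges HSP70 and HSP90, was at 109.9 TPM in shEIF3F and 157 TPM in shCON (-0.51). AHSA1, an activator of the HSP90 ATPase, was at 114 TPM in shEIF3F and 136 TPM in shCON (-0.25), and turned positive after centring (0.10).

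**Figure D3:**
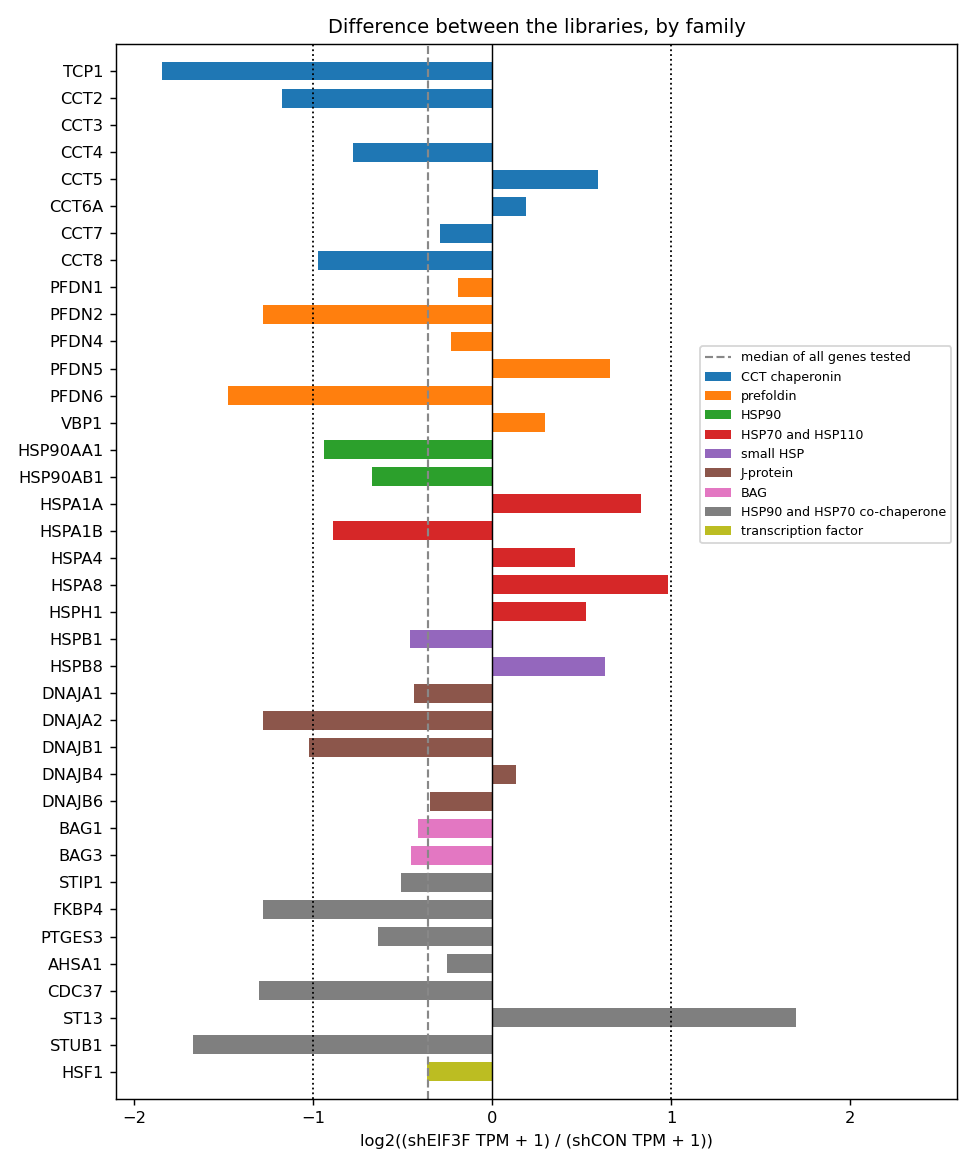
Log2 ratio of shEIF3F over shCON for the 38 genes past the filter, 1 bar each, coloured by family, with dotted lines at 1 and -1 and a dashed line at the median of all genes tested (-0.36). ST13 is the only bar past 1, 9 bars pass -1, and within CCT and prefoldin bars point both ways.

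Across the members the log2 ratio went with transcript GC content much as it did in the transcriptome. Spearman's rho was -0.27 and Pearson's r -0.27 across the 38 genes, beside a rho of -0.32 and an r of -0.28 across 13194 genes. Genes share the same 2 libraries and are not independent, so these are descriptions. With the trend removed by subtracting the median of genes of like GC content, 3 members were at least 2-fold lower, TCP1 (-1.75), DNAJA2 (-1.18) and FKBP4 (-1.0002, at the limit). Past the limit in the other direction were 4, ST13 (1.79), HSPA1A (1.56), HSPA8 (1.21) and HSPB8 (1.15). HSPA1A counts here by its own entry, which cannot be told apart from HSPA1B. As deposited, HSPA1A and HSPA1B together had 53.3 TPM in shEIF3F and 94.9 TPM in shCON. The locus summed with AL671762.1 was at -0.10. All genes tested past the limits were then 13.9% lower and 13.3% higher. TCP1 and ST13 were the only members past 2-fold in the same direction under all 10 settings run, the deposited values included. The settings on the minimum mean and on repeated symbols cannot alter a member's ratio, so they add no support to this. With a pseudocount of 0.1 TPM 9 members were lower and 2 higher, beside 30.4% and 11.1% of all genes, and with 5 TPM 8 were lower and 1 higher, beside 14.3% and 3.57%. The counts were 9 lower and 1 higher without the filter (6.99% and 2.42% of all genes), with a minimum mean of 5 TPM (28.9% and 7.5%) and with the most abundant entry of each symbol (25.6% and 8.45%).

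**Figure D4:**
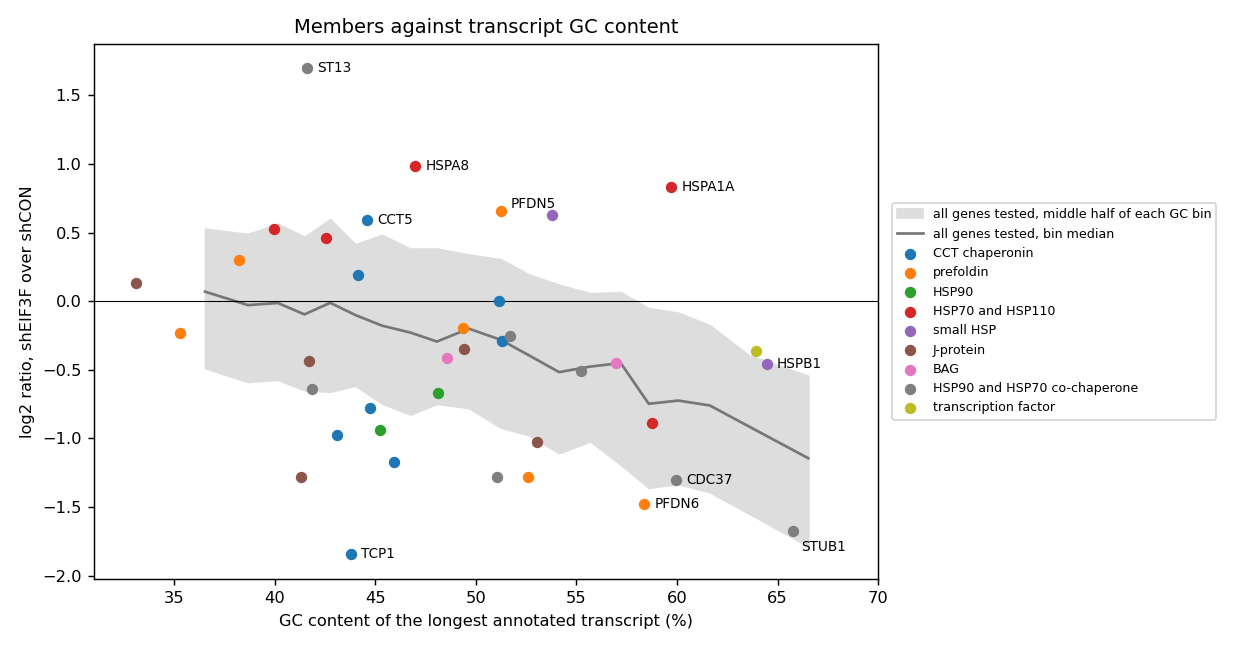
Log2 ratio of shEIF3F over shCON against GC content of the longest annotated transcript, in percent, 1 point per member past the filter. The grey line and band give the median and middle 50% of all genes tested in 20 GC bins. STUB1 and CDC37 lie inside the band and TCP1, ST13 and HSPA8 outside it.

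**Figure D5:**
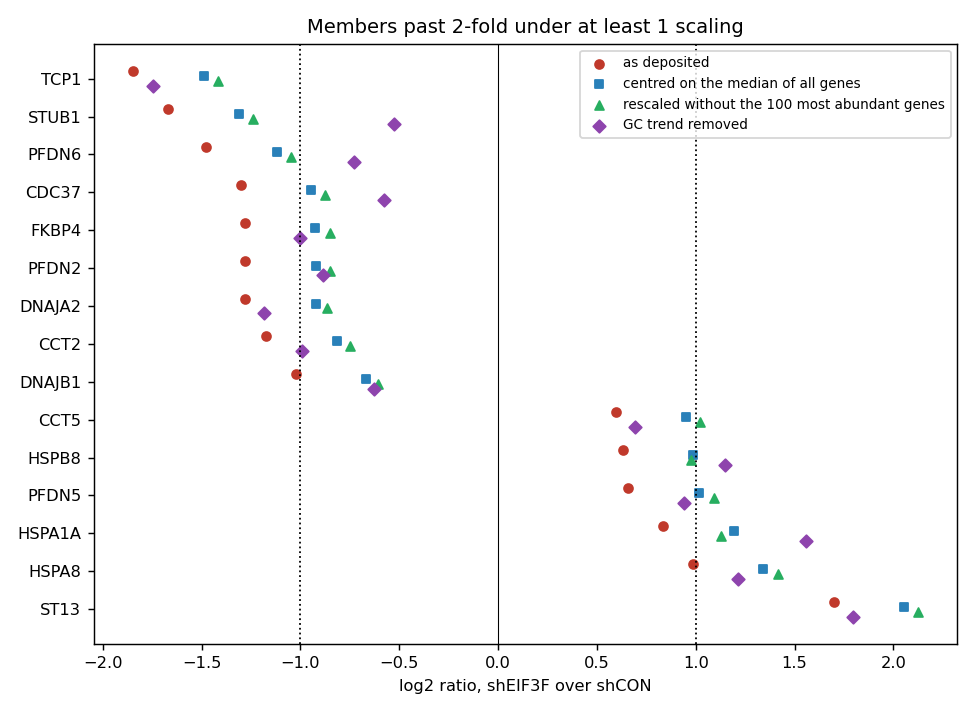
Log2 ratio of the 15 members past 2-fold under at least 1 of 4 scalings, 1 symbol per scaling, with dotted lines at 1 and -1. All 4 symbols of TCP1 lie below -1 and all 4 of ST13 above 1, while STUB1 is at -1.67 as deposited and at -0.53 with the GC trend removed.

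Genes that work beside the members were taken from lists of 101 names, of which 73 passed the filter. Of these, 16 were at least 2-fold lower (21.9%) and 2 at least 2-fold higher (2.74%), beside 25.5% and 8.44% of all genes tested. After centring, 9 were at least 2-fold lower and 5 higher, where all genes had 16% and 14.7%. The partners thus did not exceed the background in either direction under these settings. The lists, like the members, were chosen by name. Among HSP90 partners, FKBP8, a membrane-anchored immunophilin, was at 42.9 TPM in shEIF3F and 320 TPM in shCON (log2 ratio -2.87). TELO2 (-2.16) and TTI1 (-1.44), which with HSP90 mature the large kinases of the mTOR and ATM family, and RUVBL2 (-1.69), an ATPase of the R2TP co-chaperone complex, were also at least 2-fold lower. With the GC trend removed RUVBL2 was within 2-fold (-0.97), FKBP8 was at -1.72, TELO2 at -1.01 and TTI1 at -1.24. Of 25 in that list, 6 were lower, or 24%, and 1 was higher, or 4%, both at or below the shares of all genes. The higher one was CHORDC1 (1.03, or 0.96 with the GC trend removed), chosen after its values were seen.

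Other lists held fewer. DNAJC9, a histone-binding J-protein, was at 1.4 TPM in shEIF3F and 12.99 TPM in shCON (log2 ratio -2.54), 1 of 3 lower among 15 further J-proteins. HSPB6, a small heat shock protein known from muscle, was at 58.2 TPM in shEIF3F and 239 TPM in shCON (-2.02, or -1.11 with the GC trend removed). HSPBP1, an HSP70 exchange factor, was at 15.1 TPM in shEIF3F and 48.6 TPM in shCON (-1.63, or -0.71 with the GC trend removed). TBCD, a tubulin-folding cofactor, was the only lower gene of 14 CCT and prefoldin partners (-1.32), and was within 2-fold with the GC trend removed (-0.80) or once centred (-0.96).

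Among heat shock factors and regulators, HSF4 was lower (-1.51, or -0.60 with the GC trend removed) and HSBP1L1 higher, at 38.0 TPM in shEIF3F and 16.9 TPM in shCON (1.12). Of 6 ribosome-linked chaperones, HYPK (-2.67) and BTF3L4 (-1.06, or -0.70 after centring) were at least 2-fold lower. HYPK was at 1.11 TPM in shEIF3F, a low level, and 12.45 TPM in shCON. HSPA14, at 6.87 TPM in shEIF3F and 14.42 TPM in shCON (-0.97), lay just short of the limit. BTF3, a subunit of the nascent polypeptide-associated complex, was at 877 TPM in shEIF3F and 641 TPM in shCON (0.45).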

How the data were processed

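RNA-seq was done on total RNA extracted with Trizol, with libraries from an Illumina TruSeq RNA kit, per the labels' protocols. The deposited values are TPM per gene symbol, computed by the authors and rounded to 2 decimals. Per the submitters' processing notes, CASAVA, HISAT2 and hg19 were used. Not given in the sources used here are the gene counter, the annotation, strand use and read length. The table held 58884 entries. The 1533 entries repeating a symbol were summed with their namesakes, each member having 1 entry. The 27 entries turned into dates and 5530 small RNA symbols were left out. Column names were matched to sample descriptions.

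Ratios used a pseudocount of 1 TPM, which understates differences of low genes, and a minimum mean of 1 TPM. The members, lists and rules were chosen with earlier results of these data known. Named genes were all members, EIF3F and up to 4 genes per partner list with the largest absolute ratio; others are marked as chosen after their values were seen. Alternatives were pseudocounts of 0.1 and 5, no minimum or a mean of 5 TPM, centring on the median of all genes, rescaling without the 100 most abundant genes, removal of the GC trend in 20 bins, the most abundant entry per symbol, and pseudogene entries added to their parent. GC content (99.1% of genes), shared 50-base segments and exon overlap came from GENCODE release 29, and promoter windows from RefSeq, both on GRCh38, used for names and sequence only. Amino acid sequences were not used here. Calculations ran in Python 3.11.15 with NumPy 2.4.6, pandas 2.3.3, SciPy 1.17.1 and matplotlib 3.10.9, and were tested on simulated data.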

Additional observations from a re-analysis of the deposited data

How the results depend on the processing

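The count of members at least 2-fold lower (9) was 3 after centring on the median of all genes, 3 after rescaling without the 100 most abundant genes and 3 with the GC trend removed, and stayed at 8 or 9 under the other alternatives. The count at least 2-fold higher (1) was 4 after centring, 5 after rescaling, 4 with the GC trend removed and 2 with a pseudocount of 0.1 TPM, and 1 otherwise. Centring and rescaling add to every ratio by construction, so lower genes leave and higher genes enter; why GC content and ratio go together was not tested. The median log2 ratio of the members (-0.43) ranged from -0.45 with a mean of 5 TPM or more to -0.00050 after rescaling. No member past 2-fold changed direction. After centring, 6 members crossed 0, after rescaling 8, and with the GC trend removed 6, all within 2-fold as deposited. Adding the pseudogene entries, 77 for 17 members and at most 1.93% of the parent's TPM, moved no member past or back over the limit. Shared 50-base segments exceeded 10% of the transcript for 9 members and were absent for 19. No paired analysis was possible because each group has 1 library, and no replicate could be left out. Depth is unknown, so members near 1 TPM (DNAJB4, HSPA1A, BAG2) are the least certain.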
